A study of Mus musculus with 2 samples.

Results

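Heat shock proteins and their partners were compared between IRF8 KO and wt mouse primary CD11b-positive cells, gene by gene on 2 two-colour arrays. The genes were those whose deposited symbol begins with Hsp, Dnaj, Cct and a digit, or Bag and a digit. This took in 42 genes of the 7976 listed, measured by 54 probes. Of the 42, 25 had at least 1 probe on both arrays and entered the comparison, 14 appeared on replicate 2 alone, and 2 (Hsph1 and Dnajc19) appeared on replicate 1 alone. The remaining gene, Dnajc6, was listed on each array by a different probe. The 42 comprised 6 HSP70 genes, 3 of the HSP110 branch, 3 of HSP90, 1 small heat shock protein, 6 subunits of the CCT ring, 20 J proteins (2 of type A, 8 of type B and 10 of type C) and 3 BAG domain proteins.

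On each array, RNA of IRF8 KO cells was labelled with Cy3 and RNA of wt cells with Cy5. IRF8 (interferon regulatory factor 8) is a DNA-binding factor that steers myeloid progenitors towards monocytes and dendritic cells, and CD11b is an integrin chain found on the surface of myeloid cells. Per the labels the cells had no treatment, and the labels used here name no strain, age, allele, tissue of origin or way of selecting the cells. GEO's records number the 2 arrays as biological replicates, and p-values treat them as independent. Both arrays carry the dyes the same way round, so dye and genotype cannot be told apart.

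Molecular chaperones bind unfolded proteins and help them fold. HSP70 proteins work in cycles of ATP binding and hydrolysis: J proteins bring substrates and trigger hydrolysis, and BAG domain and HSP110 proteins release the nucleotide. HSP90 acts on partly folded clients such as kinases and receptors, and the CCT ring folds actin and tubulin. The factor HSF1 switches on the inducible members under heat and other protein stress by binding heat shock elements, while the unfolded protein response controls the members of the endoplasmic reticulum (ER).

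Promoters are shown for the member that passed the test (Hspa1b), the member with the highest mean ratio (Hspa4l) and 2 ER members that went in opposite directions on the arrays (Hspa5 and Dnajb9), so that their stress elements can be read beside their values. Each run is the 250 bases before the gene's start in RefSeq, build GRCm38.p6, written 5′ to 3′ on the gene's strand. Capitals mark a match to a heat shock element (GAANNTTC or TTCNNGAA) or to the ER stress element (CCAAT, then any 9 bases, then CCACG), searched on both strands; the heat shock patterns can overlap each other.
Hspa1b, chr17:34959239-34959488, minus strand: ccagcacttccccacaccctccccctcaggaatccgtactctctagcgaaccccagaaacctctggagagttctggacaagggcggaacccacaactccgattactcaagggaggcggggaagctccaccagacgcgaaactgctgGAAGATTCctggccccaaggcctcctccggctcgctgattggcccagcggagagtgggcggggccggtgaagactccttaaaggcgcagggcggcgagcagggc
Hspa4l, chr3:40745363-40745612, plus strand: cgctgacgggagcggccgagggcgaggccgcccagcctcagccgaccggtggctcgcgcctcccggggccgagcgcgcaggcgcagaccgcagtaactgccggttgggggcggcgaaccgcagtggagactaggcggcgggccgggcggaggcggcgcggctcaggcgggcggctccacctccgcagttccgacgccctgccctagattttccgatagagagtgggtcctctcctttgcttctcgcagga
Hspa5, chr2:34771840-34772089, plus strand: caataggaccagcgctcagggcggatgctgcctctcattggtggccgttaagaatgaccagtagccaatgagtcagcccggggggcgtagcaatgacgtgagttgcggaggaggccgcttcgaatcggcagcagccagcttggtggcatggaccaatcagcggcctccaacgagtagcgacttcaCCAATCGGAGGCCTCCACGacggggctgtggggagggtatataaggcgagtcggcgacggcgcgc
Dnajb9, chr12:44210069-44210318, minus strand: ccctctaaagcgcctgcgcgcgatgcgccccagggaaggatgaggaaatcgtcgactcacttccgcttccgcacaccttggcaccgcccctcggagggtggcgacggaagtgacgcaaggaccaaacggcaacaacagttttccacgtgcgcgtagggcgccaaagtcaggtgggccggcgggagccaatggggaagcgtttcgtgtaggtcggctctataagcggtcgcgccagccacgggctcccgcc

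The Hspa1b promoter held 1 heat shock match, 104 to 97 bases before the start, and the Hspa5 promoter held 1 ER stress match, 65 to 47 bases before the start. The Hspa4l and Dnajb9 windows held none of these letters. RefSeq promoters were found for 32 of the 42 genes, in 44 windows since some genes have several starts. Heat shock matches lay in 8 of the 44 windows, belonging to Cct2, Cct5, Dnajb6, Dnajc10, Hspa1b and Hsph1, against 12.8% of the 32851 windows of all genes. ER stress matches lay in 2 of the 44, those of Hspa5 and Hsp90b1, against 0.113% of all windows. Hspa8, Hsp90ab1, Hsp90aa1, Hspa9, Hspb2, Cct4, Bag4, Dnajc5, Dnajc12 and Dnajc30 were not matched. A match is a description of the sequence and not a measured site.

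Each ratio given is on the log2 scale and has IRF8 KO on top of wt, as the authors normalized it unless stated, and raw signals are spot brightness minus background. To the raw ratio the authors' normalization had added a constant of -0.03 on replicate 1 and of -0.39 on replicate 2. Over the 5192 genes on both arrays the median deposited ratio was 0.03 on replicate 1 and -0.42 on replicate 2, whereas the median raw ratio was 0.05 and -0.03. A ratio of -0.42 on replicate 2 is therefore that of a typical gene, and values relative to each array's median are given as centred ratios. Median raw signals on replicate 1 were 1755 in IRF8 KO and 1652 in wt cells, and on replicate 2 they were 2584.5 in IRF8 KO and 2448 in wt cells.

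Among these chaperones, 1 fell in IRF8 KO cells, the stress-inducible HSP70 gene Hspa1b, and 0 rose, by limma's moderated test with Benjamini-Hochberg adjustment over all genes. Of all 5192 genes, 6.22% passed, 2.81% higher and 3.41% lower, so 1 of 25 is not above the background. An unadjusted p under 0.05 was reached by 3 of the 25, namely Hspa1b and Hspa8 on the lower side and Hspa4l on the higher, against 16.2% of all genes. By the rule of size, Hspa1b was also the 1 member at least 2-fold lower on both arrays (2.75% of all genes), and 0 were at least 2-fold higher on both (2.16% of all genes). With each array centred, 0 members passed (3.7% of all genes, 150 higher and 42 lower, in place of 146 and 177), and with loess within arrays 3 passed (12.6% of all genes): Hspa1b and Hspa8 lower (5.26% of all genes) and Hspa4l higher (7.34% of all genes). An ordinary t statistic passed 0 genes of any kind, and gave 1 member, Cct5, an unadjusted p under 0.05, against 5.82% of all genes. In such bulk RNA, fewer cells of a type and less RNA per cell cannot be told apart.

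**Figure D1:**
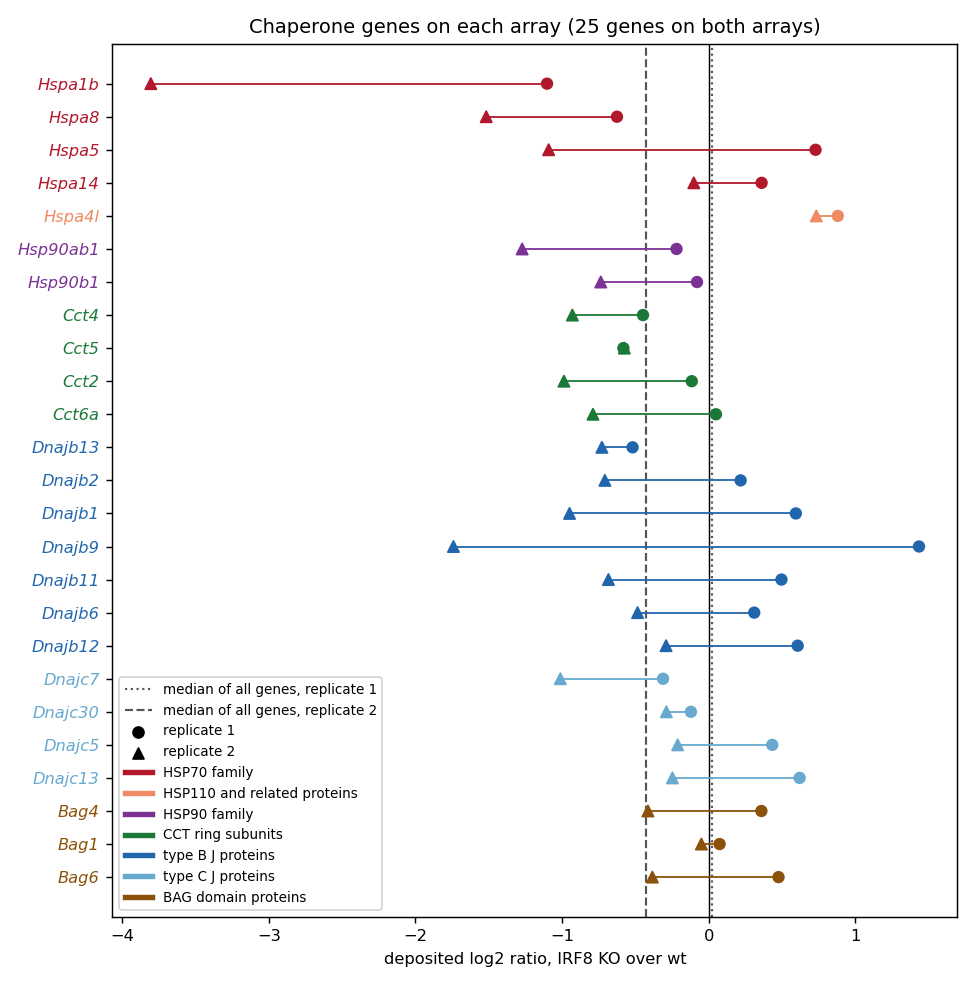
Deposited log2 ratio of IRF8 KO over wt (x axis) for the 25 chaperone genes on both arrays, coloured by role, with circles for replicate 1, triangles for replicate 2 and vertical lines at 0 and at the median of all genes on each array (0.03 and -0.42). Hspa1b lies at -1.10 and -3.81, Hspa4l is the member above 0 on both arrays, and Dnajb9 spans 1.44 to -1.74.

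Of the 4 HSP70 genes on both arrays 1 fell, against 3.41% of all genes. The median ratio of the 4 was -0.13 on replicate 1 and -1.30 on replicate 2, against 0.03 and -0.42 for all genes. Centred, the median of the 4 was -0.16 on replicate 1 and -0.88 on replicate 2. Hspa1b, the stress-inducible cytosolic HSP70 (probe on chromosome 17, 35093563 to 35093633, mouse build 37), gave raw signals of 1256 in IRF8 KO and 2648 in wt cells on replicate 1. On replicate 2 its signals were 5716 in IRF8 KO and 60888 in wt cells. The IRF8 KO channel was the dimmer on both arrays, by 2.15-fold on replicate 1 and 14.0-fold on replicate 2 after the authors' normalization. The wt signal on replicate 2 was close to the highest reading of that array (64824), where brightness can saturate, so the fold on replicate 2 may be understated, and the mean shares this limit. The mean ratio was -2.45 ± 1.91 (SD, n = 2; limma adjusted p = 2.33e-07). This p rests on the standard error of 0.40 that the test gave to every gene, while the spread of Hspa1b between its own arrays gives a standard error of 1.35. The 2 arrays agreed in direction and differed widely in size: without replicate 2 the ratio was -1.10 and without replicate 1 it was -3.81. Centred, it stood at -2.25 ± 1.59 and did not pass (adjusted p = 0.0619). Another Hspa1b probe (35096601 to 35096671 on the same chromosome) was listed on replicate 2 only, with 1272 in IRF8 KO and 836 in wt cells and a ratio of 0.21. The deposited table names this probe Hspa1b too. It lists no gene ID hit for it, as also for probes of Hspa4l, Hspa8, Dnajb12, Bag6 and Dnajc5. Whether both Hspa1b probes measure the same transcript was not tested. Hspa1b has a near-identical neighbour, Hspa1a, and signal from both may reach the same probe.

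Hspa8, the constitutive cytosolic HSP70, had signals of 3806 in IRF8 KO and 5764 in wt cells on replicate 1. On replicate 2 they were 7063 in IRF8 KO and 15405 in wt cells. IRF8 KO was the dimmer channel on both arrays, with ratios of -0.62 and -1.52 and a mean of -1.07 ± 0.63 (SD, n = 2; limma adjusted p = 0.0917). Relative to the array medians the ratios were -0.65 and -1.09, and with loess the gene passed at -0.85 ± 0.15 (adjusted p = 0.0372). The deposited table gives this probe no position and no gene ID hit. Hspa8 has many processed copies in the genome, so its signal may include them.

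Hspa14, an HSP70 relative that in human cells works at the ribosome, stood at 0.36 and -0.10 (adjusted p = 0.926). Its centred ratios of 0.34 and 0.32 were nearly equal. Hspa5, the HSP70 of the ER lumen (BiP), is described with the ER members below. Hspa9, the mitochondrial HSP70, was listed on replicate 2 only, at -0.83 from signals of 1057 in IRF8 KO and 1428 in wt cells. Hspa12a, a distant HSP70 relative, was listed there too, at 0.98 from 3287 in IRF8 KO and 1274 in wt cells.

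Hspa4l, an HSP110-type nucleotide exchange factor (probe on chromosome 3, 40594095 to 40594165, build 37), was the 1 member with a higher deposited ratio on both arrays, against 15.6% of all genes. Its signals on replicate 1 were 2317 in IRF8 KO and 1235 in wt cells, and on replicate 2 they were 3256 in IRF8 KO and 1491 in wt cells. IRF8 KO was thus the brighter channel on both arrays by similar amounts, with ratios of 0.88 and 0.73. The mean was 0.81 ± 0.10 (SD, n = 2; limma adjusted p = 0.284), and the common standard error took no account of this small spread. Centred, it was 1.01 ± 0.21 (adjusted p = 0.0928), and with loess it passed at 0.95 ± 0.20 (adjusted p = 0.0181). Another Hspa4l probe, on replicate 2 only, gave 0.51 from 1457 in IRF8 KO and 778 in wt cells, the same direction. This probe too has no gene ID hit listed. The other HSP110 genes were on 1 array each, Hspa4 at -0.21 on replicate 2 and Hsph1, the inducible HSP110, at -0.32 on replicate 1. The Hsph1 signals were dim, at 624 in IRF8 KO and 766 in wt cells. All probes listed on replicate 1 only had a median ratio of -0.30.

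**Figure D2:**
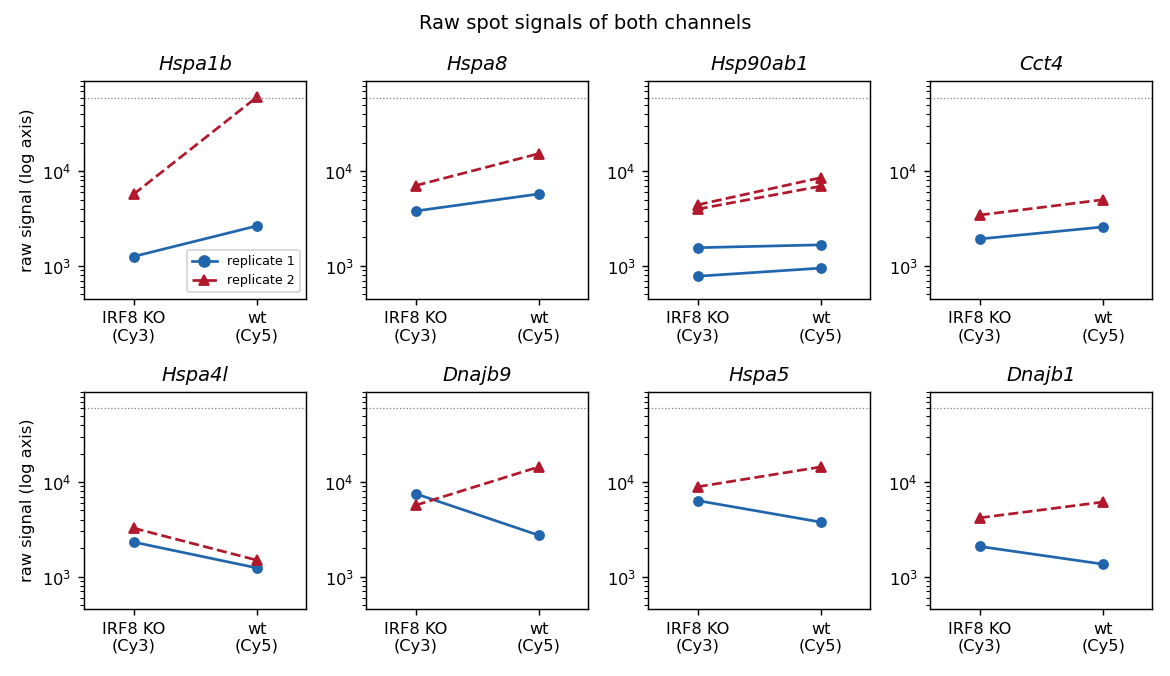
Raw spot signals on a log axis for 8 chaperone genes, with IRF8 KO (Cy3) left of wt (Cy5), circles and solid lines for replicate 1, triangles and dashed lines for replicate 2, 1 line per probe, and a dotted line at 60000. Lines of Hspa1b, Hspa8, Hsp90ab1 and Cct4 go up towards wt on both arrays, that of Hspa4l goes down on both, and those of Dnajb9, Hspa5 and Dnajb1 cross in direction between arrays.

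Both HSP90 genes on both arrays had ratios below 0 and below the array median on each, and neither passed. Hsp90ab1, the constitutive cytosolic HSP90, was measured by 2 probes at nearly the same place (chromosome 17, 45706488 to 45706558 and 1 base further). The first gave 1558 in IRF8 KO and 1670 in wt cells on replicate 1, and 4425 in IRF8 KO and 8575 in wt cells on replicate 2. The second gave 778 in IRF8 KO and 948 in wt cells on replicate 1, and 3988 in IRF8 KO and 6968 in wt cells on replicate 2. Both probes showed a small difference on replicate 1 and one over 2-fold on replicate 2 after the authors' normalization. The gene's mean was -0.75 ± 0.74 (SD, n = 2; limma adjusted p = 0.346), and its centred ratios were -0.24 and -0.85. The other probe of Hsp90ab1, on replicate 2 only, gave -1.30, close to the -1.35 and -1.20 of these probes there. Hsp90aa1, the inducible cytosolic HSP90, was on replicate 2 only with probes that disagreed, at 0.22 and -0.51. Hsp90b1, the HSP90 of the ER lumen (GRP94), stood at -0.08 and -0.74 (adjusted p = 0.727).

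The CCT ring was represented by 4 of 6 listed subunits on both arrays, and 0 of the 4 passed limma (0 also at an unadjusted p under 0.05). Cct4 had signals of 1928 in IRF8 KO and 2582 in wt cells on replicate 1, and 3451 in IRF8 KO and 5008 in wt cells on replicate 2. Its ratios were -0.45 and -0.93, or -0.47 and -0.50 when centred, so that its place below a typical gene was nearly the same on both arrays (adjusted p = 0.415 as deposited and 0.382 centred). Cct5 had deposited ratios of -0.58 and -0.57, from 1432 in IRF8 KO and 2104 in wt cells on replicate 1, and 12884 in IRF8 KO and 14622 in wt cells on replicate 2. Centring parted them to -0.61 and -0.15, so the closeness of the deposited values depends on the offset between arrays. Cct2 stood at -0.11 and -0.99 and Cct6a at 0.05 and -0.79. The median ratio of the 4 was -0.28 on replicate 1 and -0.86 on replicate 2, against 0.03 and -0.42 for all genes. Centred, 3 of the 4 were below 0 on both arrays, against 31.1% of all genes. Cct3 was on replicate 2 only, where it was 2.03-fold lower in IRF8 KO after normalization (raw signals of 1807 in IRF8 KO and 2800 in wt cells, ratio -1.02), and Cct8 was there at -0.29.

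The type B J proteins stood higher on replicate 1 and lower on replicate 2 in 6 of 7 cases, against 36.1% of all genes, and 0 of the 7 passed (0 at an unadjusted p under 0.05, and 0 with loess). Their median was 0.50 on replicate 1 and -0.71 on replicate 2. After centring 5 of the 7 kept opposite signs in that order, against 18.8% of all genes, with medians of 0.47 and -0.28. Dnajb1, the stress-inducible cytosolic partner of HSP70, had 2083 in IRF8 KO and 1354 in wt cells on replicate 1, and 4181 in IRF8 KO and 6150 in wt cells on replicate 2. The brighter channel was IRF8 KO on replicate 1 and wt on replicate 2. Its ratios of 0.60 and -0.95 averaged -0.18 ± 1.09 (SD, n = 2; limma adjusted p = 0.901). Dnajb2, a neuronal J protein also found elsewhere, stood at 0.22 and -0.71, and Dnajb6, which holds back aggregation of polyglutamine proteins, at 0.31 and -0.48. Dnajb12, a J protein of the ER membrane, stood at 0.61 and -0.29, and its centred ratios of 0.58 and 0.13 had the same sign. Dnajb13, a J protein of sperm flagella, was the exception, at -0.52 and -0.73 (adjusted p = 0.484), from dim signals of 607 in IRF8 KO and 854 in wt cells on replicate 1.

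Members of the ER lumen, a grouping made after the values were seen, had a median ratio of 0.61 on replicate 1 and -0.91 on replicate 2 over the 4 on both arrays. The medians of all genes were 0.03 and -0.42. Of the 4, 0 passed (0 also at an unadjusted p under 0.05, and 0 with loess). The grouping leaves out Dnajb12 of the ER membrane, whose centred ratios of 0.58 and 0.13 were not opposite. Dnajb9 (ERdj4), a J protein that works with BiP (probe on chromosome 12, 45306946 to 45307016, build 37), gave 7520 in IRF8 KO and 2730 in wt cells on replicate 1, and 5682 in IRF8 KO and 14470 in wt cells on replicate 2. After normalization IRF8 KO was 2.71-fold higher on replicate 1 and 3.34-fold lower on replicate 2, the 1 member at least 2-fold in opposite directions (0.385% of all genes). Its mean of -0.15 had an SD of 2.25, of rank 11 among the 5192 genes. Hspa5 gave 6354 in IRF8 KO and 3763 in wt cells on replicate 1, and 8900 in IRF8 KO and 14448 in wt cells on replicate 2. Its ratios were 0.73 and -1.09, and centring left them at 0.70 and -0.67. Dnajb11 (ERdj3) gave 0.50 and -0.68, also opposite after centring (0.47 and -0.26). Hsp90b1 was below the median on both arrays, and Dnajc10, a J protein with disulfide reductase activity, was on replicate 2 only at 0.33. Dnajb9 too kept opposite signs after centring, at 1.41 and -1.32. Dnajb9 and Dnajb11 were also counted among the type B J proteins above, so these groups overlap.

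**Figure D3:**
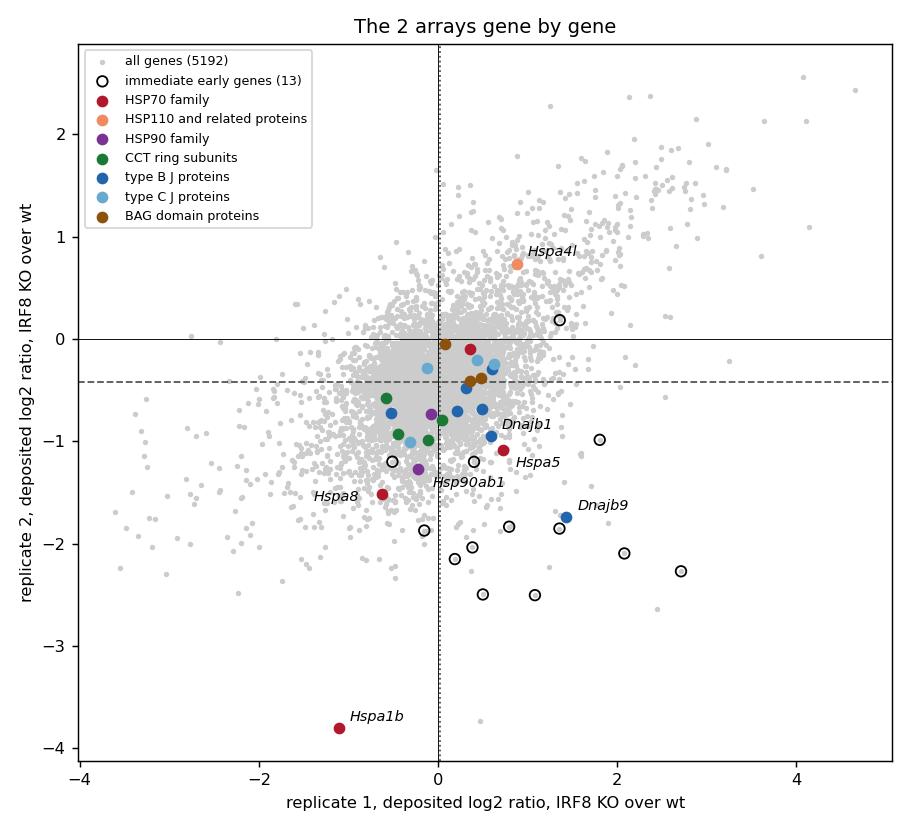
Deposited log2 ratio of IRF8 KO over wt on replicate 1 (x axis) and replicate 2 (y axis) for all 5192 genes in grey, 13 immediate early genes as open circles and chaperone genes coloured by role, with dotted and dashed lines at the array medians. Dnajb9, Hspa5 and Dnajb1 lie at the lower right with most immediate early genes, Hspa1b lies low on both axes and Hspa4l at the upper right.

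Immediate early genes, which cells switch on within minutes of a stimulus, also stood apart between the arrays. Of 13 on both arrays, 10 were higher on replicate 1 and lower on replicate 2, both as deposited and after centring, with medians of 0.80 and -1.87. Fos stood at 2.71 and -2.27 and Jun at 2.08 and -2.10, and 0 of the 13 passed limma (5 reached an unadjusted p under 0.05, and 1, Fosl2, passed with loess). Their part in the chaperone ratios was not tested. As deposited, 10 chaperones were lower on both arrays (43.7% of all genes). Of all 25 chaperones, 14 were higher on replicate 1 and lower on replicate 2 as deposited (36.1% of all genes), and 7 after centring (18.8% of all genes). The reverse, lower on replicate 1 and higher on replicate 2, was found for 0 as deposited (4.58% of all genes) and for 1 after centring (18.8% of all genes).

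Of the type C J proteins, 4 of 10 were on both arrays and 0 passed (0 at an unadjusted p under 0.05, and 0 with loess). Dnajc7, which links HSP70 and HSP90 through its TPR repeats, had 3341 in IRF8 KO and 4070 in wt cells on replicate 1, and 6390 in IRF8 KO and 9816 in wt cells on replicate 2. Its ratios of -0.31 and -1.01 stayed below the medians on both arrays (centred -0.34 and -0.59; adjusted p = 0.444). Dnajc13, an endosomal J protein, stood at 0.62 and -0.25, and Dnajc5, the cysteine string protein of secretory vesicles, at 0.43 and -0.21, with 0.02 from another Dnajc5 probe on replicate 2 only. When centred both were above 0 on both arrays, Dnajc13 at 0.60 and 0.18 and Dnajc5 at 0.41 and 0.21. Dnajc30, a mitochondrial J protein with 3 probes, stood at -0.12 and -0.29. On replicate 2 its probes ranged from -0.50 to -0.13, and 2 of them share the same position.

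The BAG domain proteins had means of 0.01 for Bag1, -0.03 for Bag4 and 0.05 for Bag6, and 0 of 3 passed (0 at an unadjusted p under 0.05, and 0 with loess). Bag1, an exchange factor of HSP70, had signals of 12247 in IRF8 KO and 11418 in wt cells on replicate 1, and 11222 in IRF8 KO and 8848 in wt cells on replicate 2. Its deposited ratios of 0.08 and -0.05 became 0.05 and 0.38 when centred. Bag4, which binds the cytoplasmic part of tumour necrosis factor receptor 1, stood at 0.36 and -0.41. Bag6, which handles misplaced membrane proteins, stood at 0.48 and -0.38. All 3 were above the array median on both arrays (31.1% of all genes).

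A further 24 chaperone probes were listed on 1 array only, 21 on replicate 2 and 3 on replicate 1. Those on replicate 2 had a median ratio of -0.29, against -0.06 for all 3024 probes listed there only. Of these 21 probes, from 19 genes, 8 were higher and 13 lower, against 1359 higher and 1664 lower of the 3024. The 21 were dim, with a median signal of 1456 against 5485 for the chaperone probes on both arrays. All probes listed on replicate 2 only were about as dim, with a median signal of 1395. The 2 at least 2-fold were Cct3 and the third Hsp90ab1 probe, against 323 of all 3024 probes listed on replicate 2 only. Both ratios include the constant of -0.39 added on that array. The raw signals of this Hsp90ab1 probe were 4581 in IRF8 KO and 8608 in wt cells. Beside those named above, Dnaja2, a cytosolic type A J protein, gave -0.39 and -0.60 with its 2 probes, and Dnaja3, its mitochondrial relative, -0.62. Dnajb5 gave -0.55, Dnajc4 -0.03, Dnajc12 -0.34 and the small heat shock gene Hspb2 0.16. Dnajc15, of the inner mitochondrial membrane, gave 0.60 from 1289 in IRF8 KO and 648 in wt cells. On replicate 1 only, Dnajc19, a J protein of mitochondrial import, gave -0.32, against a median of -0.30 for all 441 probes listed there only. Dnajc6, the auxilin that uncoats clathrin vesicles, gave -0.15 on replicate 1 and -0.33 on replicate 2 with different probes.

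Of 21 inducible heat shock genes in a list, 10 were listed and 6 were on both arrays. Of the 6, 5 are described above, and the other was Stip1, which joins HSP70 to HSP90, at 0.15 and -0.80. Only Hspa1b of these fell as deposited, against 3.41% of all genes, and 0 passed when centred (3.7% of all genes). Hspa1b, Hspa8 and Hspa4l, 3 of the 6, reached an unadjusted p under 0.05 (16.2% of all genes). The same genes passed with loess (12.6% of all genes), Hspa4l as higher and the others as lower. The median ratio of the 6 was -0.03 on replicate 1 and -1.11 on replicate 2, against 0.03 and -0.42 for all genes. The list also holds Hspa8 and Hsp90ab1, which are named constitutive above. Of 25 co-chaperones of HSP90 and HSP70, 11 were on both arrays and 0 passed limma (0 at an unadjusted p under 0.05, 0 centred and 0 with loess). The lowest mean was -0.54, for the mitochondrial import receptor Tomm70a. Their median was -0.32, against -0.21 for all genes. The HSP70 co-chaperone St13 stood at -0.42 ± 0.44, the ubiquitin ligase Stub1 at -0.03 ± 0.51 and the HSP90 co-chaperone Ptges3 at -0.38 ± 0.26 (SD, n = 2 each). The prefoldin subunit Pfdn2 was opposite on the arrays, at 0.71 and -0.67, and so was Grpel2, a nucleotide exchange factor of mitochondrial HSP70, at 0.80 and -0.61. None of the 6 heat shock factors and their partners in a list was on both arrays, and Hsf1 itself was on replicate 2 only at -0.51, from 1266 in IRF8 KO and 1370 in wt cells.

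Over all 25, the median chaperone ratio was 0.22 on replicate 1 and -0.71 on replicate 2, against 0.03 and -0.42 for all genes. The median of the members' means was -0.18, against -0.21 for all genes. In raw signals IRF8 KO was the brighter channel for 15 of 25 chaperones on replicate 1, against 53.2% of all genes, and for 8 of 25 on replicate 2, against 47.5% of all genes. The spread between arrays had a median SD of 0.59 in chaperones and 0.38 in all genes as deposited, and of 0.29 in both after centring. After centring, 9 chaperones were below 0 on both arrays and 8 above 0 on both, each against 31.1% of all genes.

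**Figure D4:**
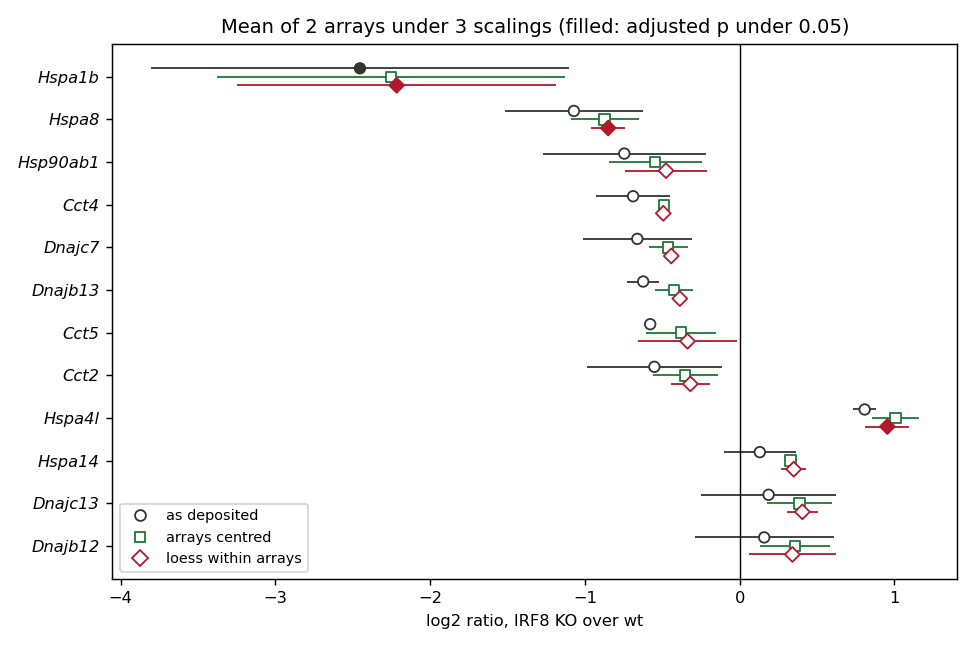
Mean log2 ratio of IRF8 KO over wt (x axis) of 12 chaperone genes as deposited (circles), with each array centred (squares) and with loess within arrays (diamonds), with lines joining the 2 arrays' values and filled symbols for an adjusted p under 0.05. Hspa1b is filled as deposited and with loess, Hspa8 and Hspa4l with loess only, and Hspa14, Dnajc13 and Dnajb12 lie further above 0 once the arrays are centred.

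Markers of several cell types differed between the genotypes. Itgam, which encodes CD11b itself, was higher in IRF8 KO, with 7883 against 1862 in wt cells on replicate 1 and 15036 against 3527 in wt cells on replicate 2 (mean ratio 1.88 ± 0.25, SD, n = 2; limma adjusted p = 0.000156). Of 9 neutrophil markers on both arrays 5 rose, of 7 monocyte and macrophage markers 6 fell, of 4 dendritic cell markers 4 fell, and of 9 cell cycle genes 6 rose. Of all genes, 2.81% rose and 3.41% fell. Chil3 was called higher at 3.26 and -0.21 and Marco lower at -2.76 and 0.03, so both calls rest on replicate 1. The neutrophil markers Ltf, Lcn2 and S100a8 had means of 0.01, 0.08 and -0.03. With the arrays centred 3 neutrophil, 2 macrophage, 0 dendritic cell and 6 cell cycle genes passed. The 4 lists had median ratios of 1.66 and 0.65 for neutrophil, -2.77 and -1.25 for macrophage, -1.56 and -1.24 for dendritic cell and 2.29 and 1.02 for cell cycle genes. Of 7 B cell markers 0 passed limma (4 reached an unadjusted p under 0.05, and 1, Vpreb3, passed with loess), nor did the 1 T or NK cell marker or the 2 erythroid markers on both arrays (1 erythroid marker, Hbb-b1, reached an unadjusted p under 0.05 and passed with loess). The B cell medians were -0.12 on replicate 1 and -1.53 on replicate 2. Their part in the chaperone ratios was not tested. Irf8 itself had 0 probes under that name, so the knockout could not be checked at its own transcript.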

How the data were processed

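RNA of IRF8 KO and wt CD11b-positive cells was measured on 2 two-colour arrays. The deposited log2 ratios of Cy5 over Cy3 were normalized by the authors to the array median in the mAdb database, per the file headers, although the listed ratios of replicate 2 are not centred on 0. For each spot the authors also deposited both channels' intensity, a mean from which the median background was subtracted. Spots with a signal under 100 or under 1 times the background in either channel were removed, control features left out and the strongest spot of a well kept, per the file headers; these steps can remove a gene that 1 genotype hardly expresses. A deposited value table held the same ratios with the arrays exchanged; the array names were followed.

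The sign of each ratio was changed so that IRF8 KO stood over wt, and a gene's probes were averaged. A two-sided test of each mean against 0 was made with limma 3.58.1 in R 4.3.3 (lmFit and eBayes). P-values were adjusted over 5192 genes by Benjamini-Hochberg, with a threshold of 0.05. The prior degrees of freedom were infinite, so every gene had a standard error of 0.40, and a mean of 1.18 in size passed. The alternatives were arrays centred on the median of their genes, loess (span 0.3), removal of probes at 60000 or more, under 500 or matching several genes, an intensity trend, an ordinary t statistic, single probes, and 1 array left out. The script was tested on simulated data with normal noise of the same size for every gene and no offset between arrays. That test therefore does not cover the offset or the unequal spread of genes in these data.

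Genes named are members that passed or were 2-fold on both arrays or in opposite directions, inducible heat shock genes, the extremes of each role and 2-fold members of 1 array; others are given to account for every group. The members and lists were chosen with earlier results of these data known. Symbols and promoters came from RefSeq (GRCm38.p6), and probe positions are on mouse build 37. Precision is limited by having 2 arrays, with which an exact sign-flip test cannot give a p under 0.5.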

Additional observations from a re-analysis of the deposited data

How the results depend on the processing

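With each array centred, calls over all genes were 150 higher and 42 lower, so that 78.1% of calls were higher, against 146 and 177 (45.2%) as deposited. Loess gave 381 higher and 273 lower (58.3%), and an ordinary t statistic gave 0 and 0, with 302 genes at an unadjusted p under 0.05. The centred run had 5.89 prior degrees of freedom and loess 23.0, in place of an infinite number, so offset and spread changed together. Chaperones called lower were 1 as deposited, 0 centred, 2 with loess, 0 with an ordinary t statistic, and 0 without probes near the scanner's ceiling, a setting that removes the Hspa1b probe itself. Chaperones called higher were 0 as deposited and 1 with loess. These counts stayed at 1 and 0 without dim probes, with an intensity trend, with single probes and without probes matching several genes. Mean ratios near 0 changed sign with scaling: Bag4 to 0.17 centred and 0.16 with loess, Dnajb1 to 0.0227 and 0.0465, and Dnajb9 to 0.047 and 0.0678. Hspa5 likewise went to 0.0188 and 0.0415, Dnajb11 to 0.1064 and 0.1215, and Dnajb6 to 0.1128 and 0.1302. The median of the members' means changed sign too, from -0.18 as deposited to 0.0188 centred and 0.0415 with loess. The HSP110 branch, which is Hspa4l alone, moved to 1.01 centred and 0.95 with loess from 0.81. Leaving out 1 array left no spread to test, and the chaperone median then ranged from -0.71 to 0.22. Each array pairs both genotypes, so the test of its ratios against 0 already used this pairing. No other pairing was possible with 1 group of arrays. The causes were not tested beyond these settings.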
